A study of Mus musculus with 6 samples.

Results

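The 10 genes examined belong to small GTPase and heterotrimeric G protein signalling: the small GTPases Arl4d, Rasd1, Rem2, Rrad, Gem and Rnd3, the RhoA exchange factor Arhgef3, the Ras GTPase-activating protein Rasa1, and the regulators of G protein signalling Rgs2 and Rgs4. They were taken by name, and 10 of 10 were found among 55385 gene identifiers and were among the 18132 genes tested. RNA came from mouse primary cortical neurons taken at embryonic day 18 and cultured for 16 days. The 3 libraries labelled activated came from neurons given KCl for 5 minutes, washed, and left for 30 minutes in conditioned medium. The 3 libraries labelled control came from neurons that received no KCl. Cultures of both groups had received AraC, which blocks dividing cells, at 2.5 uM for 24 hours from day 2. The KCl concentration is given as 50 mM in one label field and as 50 uM in another. Whether the replicates came from separate cultures is not stated, so p-values measure the spread between these samples, which may be technical.

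Small GTPases switch between an inactive form bound to GDP and an active form bound to GTP. Exchange factors turn them on and GTPase-activating proteins turn them off. RGS proteins are GTPase-activating proteins for the alpha subunits of heterotrimeric G proteins and so shorten the signal of neurotransmitter receptors. In neurons several of these genes are transcribed within minutes of calcium entry, and their products feed back on calcium channels, receptors, the Ras pathway and the actin cytoskeleton.

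Markers of neurons were abundant in both groups. The summed level of 12 excitatory neuron markers was 3898 to 4209 CPM (reads of a gene relative to the scaled total of its library) in libraries labelled activated and 3912 to 4105 CPM in those labelled control. Most of this sum came from Grin2b and Camk2a; by gene, 7 of the 12 were lower, 1 (Camk2a) was higher and the median log2 fold change was −0.30. The 14 inhibitory neuron markers summed to 2127 to 2389 CPM in activated and 2745 to 2868 CPM in control libraries. Markers of other cell types were also detected. The 16 astrocyte markers summed to 2015 to 2491 CPM in activated against 1532 to 1594 CPM in control libraries. The 15 endothelial, mural and fibroblast markers summed to 358.4 to 413.9 against 227.5 to 256.7 CPM, mostly from Fn1 and Col1a1. The 12 oligodendrocyte lineage markers summed to 78.48 to 90.17 against 59.91 to 65.17 CPM, and the 15 microglia markers to 80.59 to 153.7 against 66.42 to 90.9 CPM. No marker was at 0 in all 6 libraries, but some were too scarce to test. These were Gjb6 of the astrocyte list, P2ry12 and Tmem119 of the microglia list, and Sox10, Mog, Mag, Mobp and Cldn11 of the oligodendrocyte list. Cldn5, Tek, Kcnj8 and Lum of the endothelial, mural and fibroblast list were likewise not tested. Transcripts of the mitochondrial genome made up 21.3% to 25% of gene reads in activated and 14.7% to 17.1% in control libraries. A list of 13 rapid activity-induced genes went against the labels, at 699.8 to 866.2 CPM in activated and 1859 to 1996 CPM in control libraries, so groups are named by their labels and every direction rests on them. In bulk RNA, fewer cells of a type and less RNA per cell cannot be told apart.

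Of the 10 genes, 6 were lower in the libraries labelled activated, 1 was higher and 3 did not pass the threshold (edgeR quasi-likelihood test, Benjamini-Hochberg adjusted p below 0.05 over all tested genes). Among all tested genes 20.6% were called lower and 16.2% higher. These background shares depend on scaling: 2306 of the 18132 tested genes were lower and 4375 higher when libraries were scaled to the summed level of the neuron markers, and 462 were lower and 8822 higher when they were scaled to the median neuron marker. Arl4d, Rgs2, Rem2, Rgs4, Arhgef3 and Rnd3 fell, in order of size, and Gem rose. Called decreases of at least 0.5 on the log2 scale were found for 4 of the 10, against 4.5% of all tested genes. The groups did not overlap for the 7 genes called. Over all tested genes, the libraries labelled activated lay wholly below the control libraries for 26.4% and wholly above them for 22.6%. The median log2 fold change of the 10 genes was −0.34, against 0.04 for all tested genes. Gene reads per library numbered 17753000 to 32740000 in activated and 22995000 to 32920000 in control libraries.

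**Figure D1:**
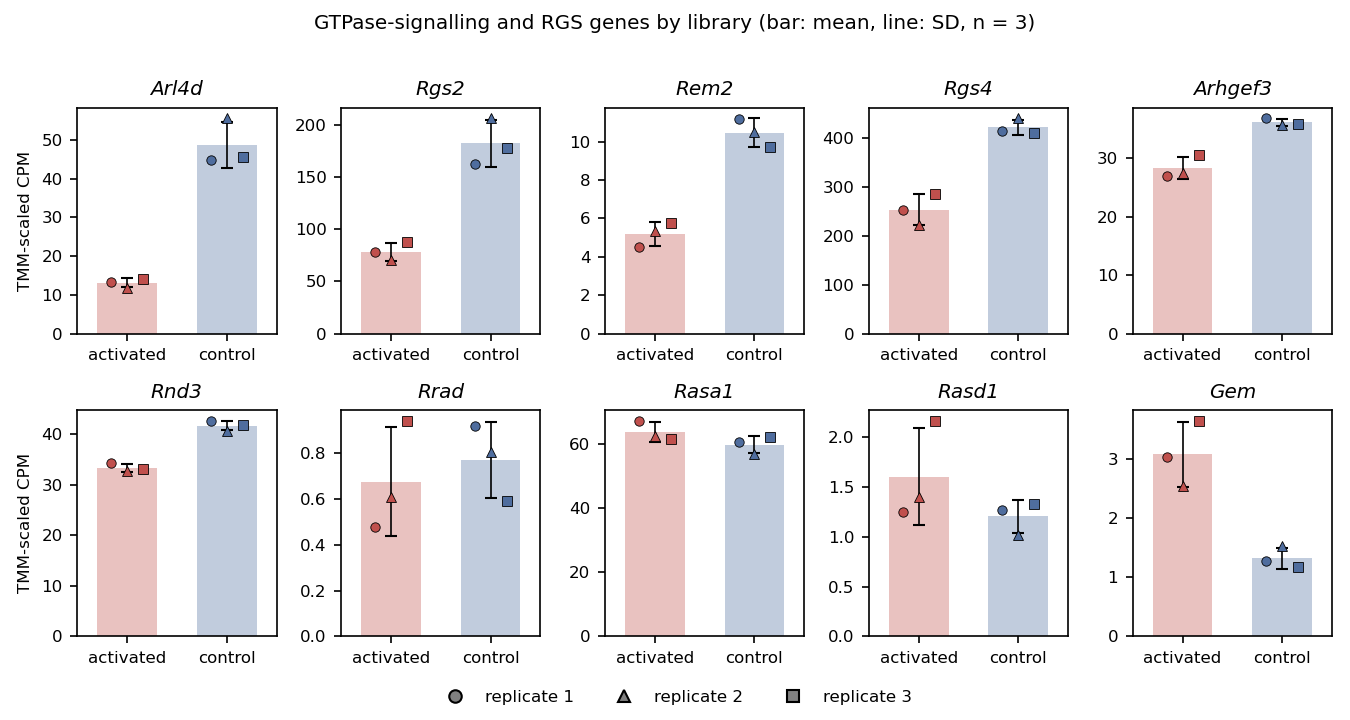
TMM-scaled CPM of each gene (vertical axes, from 0) in the 3 libraries labelled activated and the 3 labelled control; bars are means, lines SD and symbols replicates. Arl4d, Rgs2, Rem2, Rgs4, Arhgef3 and Rnd3 lie lower in every activated library, Gem lies higher, and Rrad, Rasa1 and Rasd1 overlap.

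**Figure D2:**
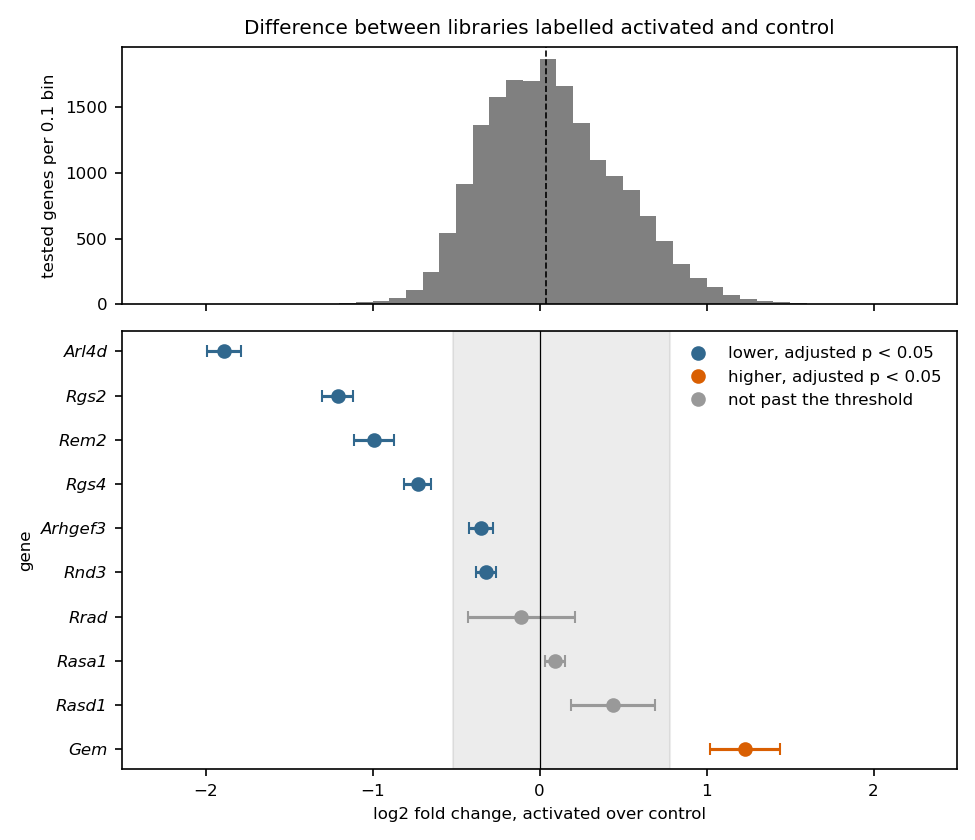
Upper panel: number of tested genes per bin of log2 fold change, with the median of 0.04 dashed. Lower panel: log2 fold change ± SE of each gene; the grey band runs from −0.52 to 0.78, the 5th to 95th percentile of all tested genes, and Arl4d, Rgs2, Rem2 and Rgs4 lie below it while Gem lies above it.

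The promoters of the 4 genes with the largest decreases are shown because these genes moved in the same direction. RefSeq (GRCm38.p6) listed a promoter window, from 250 bases before to 50 after the transcription start, for 7 of the 10 genes, Gem, Rasd1 and Rrad being without an entry. Both strands were searched for the cAMP response element TGACGTCA, its part CGTCA, the AP-1 motif TGANTCA, the EGR motif GCGNGGGCG, the serum response CArG box and TATAAA, and matches are in capitals. Each TGACGTCA contains CGTCA on both strands. The windows are chr11:101665291-101665590 (plus strand) for Arl4d, chr1:144004100-144004399 (minus) for Rgs2, chr14:54475850-54476149 (plus) for Rem2 and chr1:169747593-169747892 (minus) for Rgs4.
Arl4d: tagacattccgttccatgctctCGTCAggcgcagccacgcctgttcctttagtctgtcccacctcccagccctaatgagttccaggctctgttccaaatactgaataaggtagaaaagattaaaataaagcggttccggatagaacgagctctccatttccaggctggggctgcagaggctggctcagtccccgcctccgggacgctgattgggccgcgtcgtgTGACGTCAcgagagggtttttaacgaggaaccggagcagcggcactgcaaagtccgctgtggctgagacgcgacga
Rgs2: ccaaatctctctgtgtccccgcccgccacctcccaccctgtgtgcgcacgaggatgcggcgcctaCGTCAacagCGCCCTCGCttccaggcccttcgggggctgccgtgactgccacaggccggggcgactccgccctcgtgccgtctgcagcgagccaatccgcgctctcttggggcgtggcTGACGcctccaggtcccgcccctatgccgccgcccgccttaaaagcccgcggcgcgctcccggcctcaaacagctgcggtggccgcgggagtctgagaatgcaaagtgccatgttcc
Rem2: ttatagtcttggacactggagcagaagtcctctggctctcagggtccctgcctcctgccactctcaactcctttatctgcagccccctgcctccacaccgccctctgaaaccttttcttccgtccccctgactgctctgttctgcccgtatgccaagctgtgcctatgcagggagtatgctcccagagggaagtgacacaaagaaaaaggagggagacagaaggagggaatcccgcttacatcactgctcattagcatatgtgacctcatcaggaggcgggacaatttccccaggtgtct
Rgs4: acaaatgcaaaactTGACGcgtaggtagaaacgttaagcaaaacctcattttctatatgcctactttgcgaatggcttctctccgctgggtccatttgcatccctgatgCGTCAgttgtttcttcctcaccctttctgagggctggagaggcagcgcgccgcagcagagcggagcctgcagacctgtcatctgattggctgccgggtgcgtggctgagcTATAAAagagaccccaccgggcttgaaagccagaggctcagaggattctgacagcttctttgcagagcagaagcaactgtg
The Arl4d window held a full TGACGTCA, beginning 26 bases before the start, and a further CGTCA 228 bases before it. Of all 32851 windows listed, 1.79% held TGACGTCA and 20.8% held CGTCA. The Rgs2 window held 2 copies of CGTCA, 185 and 67 bases before the start, and 1 EGR motif, which 5.55% of windows held. The Rgs4 window held 2 copies of CGTCA, 236 and 141 bases before the start, and a TATAAA 31 bases before it, a motif in 13.6% of windows. The Rem2 window held none of these letters. Among the genes not shown, Rnd3 had a CArG box 100 bases before its start, a motif found in 1.63% of windows, and a TATAAA 28 bases before it. Of the 4 Arhgef3 windows 2 held 1 CGTCA each, 245 and 5 bases before their starts, and the Rasa1 window held none of the motifs.

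Arl4d (ENSMUSG00000034936.2, chromosome 11, 101665541 to 101667832, plus strand) showed the largest difference of the 10 genes. It encodes an ARF-like GTPase that brings cytohesin exchange factors to the plasma membrane and so acts on ARF6 and the actin cytoskeleton. Arl4d stood at 13.4, 11.8 and 14.1 CPM in activated replicates 1, 2 and 3, against 44.7, 55.5 and 45.6 CPM in control replicates 1, 2 and 3. Every activated library was far below every control library, and the means were 13.1 ± 1.15 and 48.6 ± 5.96 CPM (SD, n = 3 each). The level was 3.71-fold lower (log2 fold change −1.89 ± 0.10, SE; adjusted p = 4.96e-08 by edgeR), and 4 of the 18132 tested genes had a lower value.

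The relatives and partners of Arl4d fell too, but by less. Besides Arl4d, 5 of 6 tested genes of the ARL4 and ARF6 list were lower and none was higher, with a median log2 fold change of −0.52. The paralogues Arl4c and Arl4a had log2 fold changes of −0.57 and −0.53, ARF6 itself (Arf6) −0.55, and Cyth2, the cytohesin that ARL4 proteins recruit, −0.51. Within each library the log2 ratio of Arl4d to Arl4c was −2.13, −2.22 and −2.06 in activated and −0.88, −0.75 and −0.93 in control replicates 1, 2 and 3. For this and the other ratios given here, 0.5 CPM was added to both genes. Apart from that addition, the ratio does not depend on how libraries are scaled to each other. Its means differed by −1.28 on the log2 scale (exact two-sided permutation p = 0.1, adjusted p = 0.133 over 4 ratios). A permutation p of 0.1 is the smallest that 3 against 3 allows. The difference was −1.31 with 0.1 CPM added and −1.19 with 2 CPM added. Arl4d was thus lower relative to its paralogue in 3 of 3 activated libraries.

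Rgs2 and Rgs4 encode small RGS proteins that speed GTP hydrolysis on G protein alpha subunits, Rgs2 mainly on those of the Gq class and Rgs4 on those of the Gi and Gq classes. Rgs2 (chromosome 1, 143999338 to 144004161, minus strand) stood at 77.9, 70.1 and 87.3 CPM in activated replicates 1, 2 and 3, against 162, 206 and 178 CPM in control replicates 1, 2 and 3. The groups were clearly apart. The level was 2.32-fold lower (log2 fold change −1.21 ± 0.09, SE; adjusted p = 3.37e-06 by edgeR). Rgs4 (chromosome 1, 169741477 to 169747642, minus strand) was the most abundant of the 10 genes, at 253, 222 and 286 CPM in activated replicates 1, 2 and 3, against 415, 441 and 411 CPM in control replicates 1, 2 and 3. Its highest activated library lay well under its lowest control library. It was 1.66-fold lower (log2 fold change −0.73 ± 0.08, SE; adjusted p = 3.93e-05 by edgeR).

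Rgs4 fell less than Rgs2. The log2 ratio of Rgs4 to Rgs2 within a library was 1.7, 1.66 and 1.71 in activated replicates 1, 2 and 3, against 1.35, 1.10 and 1.2 in control replicates 1, 2 and 3. The ratio was higher in 3 of 3 activated libraries, by 0.47 on average (exact permutation p = 0.1; adjusted p = 0.133).

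The RGS family as a whole was mixed. Besides Rgs2 and Rgs4, 9 of 18 tested genes of the RGS list were lower, 3 were higher and 6 were not called; their median log2 fold change was −0.20. The counts of the whole list were 11 lower and 3 higher, and 7 lower and 2 higher without activated replicate 1. Gnb5, the G beta subunit that pairs with the R7 class of RGS proteins, had a log2 fold change of −0.61. Rgs7bp, which anchors those complexes at the membrane, had −0.45, Rgs8 −0.51 and Rgs17 −0.54. Rgs1, Rgs5 and Rgs11 were the 3 that rose; they are named on the basis of their values. Rgs11 stood at 24.7 ± 3.94 CPM in activated and 15.8 ± 1.42 CPM in control libraries (SD, n = 3 each). Rgs1 was scarce, at 0.823 ± 0.103 and 0.451 ± 0.0871 CPM in activated and control libraries, and its call was lost without activated replicate 1 or 3, without control replicate 1 or 3, with length and GC offsets and with no filter on low counts, at log2 fold changes of 0.67 to 0.93.

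Neighbouring RGS genes on chromosome 1 differed in direction. Rgs5, a gene of pericytes and other mural cells, lies 45663 bases from Rgs4 and stood at 11.9, 13.6 and 13.8 CPM in activated replicates 1, 2 and 3, against 8.58, 9.40 and 10 CPM in control replicates 1, 2 and 3. It was higher in each activated library (log2 fold change 0.50 ± 0.10, SE; edgeR adjusted p = 0.00226), whereas Rgs4 was lower in each. Rgs5 is also one of the 15 endothelial, mural and fibroblast markers, whose sum was higher in activated libraries, and the part of that cell type in the result was not tested. Rgs16 lies 40025 bases from Rgs8 and did not pass (log2 fold change 0.20), and was called without activated replicate 2 (0.32) and when libraries were scaled to the median neuron marker (0.51), where Rgs8 (−0.20) lost its call.

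On the receptor side of the RGS proteins, 7 of 12 tested G protein alpha subunit genes fell and 3 rose, and their median was −0.24. Gnaq, the Gq subunit on which Rgs2 acts, stood at 171 ± 9.41 CPM in activated and 239 ± 14.7 CPM in control libraries (SD, n = 3 each; log2 fold change −0.49). Gnai1 and Gnaz, of the Gi class, had log2 fold changes of −0.65 and −0.46, and Gnas, the stimulatory subunit, −0.29. The 3 genes called higher were Gna13, Gnai2 and Gna14, named after their values were known, and without activated replicate 3 none was called higher, and without control replicate 3 only 1.

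Rem2, Rrad and Gem belong to the RGK class of GTPases, which bind the beta subunits of voltage-gated calcium channels and reduce calcium currents. Rem2 fell, Gem rose and Rrad did not pass. Rem2 (chromosome 14, 54476100 to 54480431, plus strand), the RGK gene known in neurons for limiting dendritic branching, stood at 4.52, 5.35 and 5.74 CPM in activated replicates 1, 2 and 3, against 11.2, 10.5 and 9.72 CPM in control replicates 1, 2 and 3. Every activated library was below every control library. The level was 1.98-fold lower (log2 fold change −0.99 ± 0.12, SE; adjusted p = 7.02e-05 by edgeR).

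Gem (chromosome 4, 11704457 to 11714752, plus strand), which also restrains signalling through ROCK kinases, rose from a low base. It stood at 3.04, 2.55 and 3.64 CPM in activated replicates 1, 2 and 3, against 1.27, 1.52 and 1.18 CPM in control replicates 1, 2 and 3. These values rest on 51, 71 and 116 reads in activated and 36, 36 and 40 reads in control libraries. Every activated library exceeded every control library, by 2.34-fold on average (log2 fold change 1.23 ± 0.21, SE; adjusted p = 0.000537 by edgeR). The summed markers of astrocytes, of the oligodendrocyte lineage and of endothelial, mural and fibroblast cells were also higher in each activated library, as given above, and their part in the value of Gem was not tested.

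Rrad (chromosome 8, 104628070 to 104631327, minus strand) was close to the limit of detection. It stood at 0.476, 0.611 and 0.941 CPM in activated replicates 1, 2 and 3, against 0.918, 0.804 and 0.591 CPM in control replicates 1, 2 and 3, from 8 to 30 reads per library. Exons of Gm33023 overlap it on the other strand. The groups overlapped fully, and the log2 fold change of −0.11 had a 95% interval of −0.80 to 0.58 (edgeR adjusted p = 0.804), so a change of either sign within that interval was not detectable at this depth. The fourth RGK gene, Rem1, averaged 0.206 CPM in activated and 0.0950 CPM in control libraries and was too scarce to test.

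The log2 ratio of Rem2 to Gem within a library was 0.51, 0.94 and 0.59 in activated replicates 1, 2 and 3, against 2.72, 2.44 and 2.60 in control replicates 1, 2 and 3, with 0.5 CPM added to both genes. The activated libraries were lower with no overlap (a difference of −1.91; exact permutation p = 0.1; adjusted p = 0.133). The libraries labelled control thus held Rem2 transcripts well in excess of Gem, and the libraries labelled activated held the 2 in closer amounts.

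The calcium channel subunits on which RGK proteins act did not follow one direction. Of 9 genes, 3 fell and 2 rose, and the median was 0.11. Scaling to the summed neuron markers gave 2 lower and 5 higher with a median of 0.21, and scaling to the median neuron marker gave 0 lower and 6 higher with a median of 0.43. The beta subunit genes Cacnb1 and Cacnb4 fell, with log2 fold changes of −0.41 and −0.42, and Cacnb3 had −0.21, a call lost without activated replicate 2 or 3 (both −0.18) and without control replicate 1 (−0.20) or 3 (−0.19), and with length and GC offsets (−0.16). The pore subunit gene Cacna1a, of the P/Q-type channel, rose, at 394 ± 8.96 CPM in activated and 333 ± 16.1 CPM in control libraries (SD, n = 3 each; log2 fold change 0.24).

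Rnd3 and Arhgef3 both act on RhoA, in opposite senses: Rnd3 is a GTPase locked in its GTP-bound form that antagonises RhoA and ROCK1, and Arhgef3 is an exchange factor that activates RhoA and RhoB. Rnd3 (chromosome 2, 51130438 to 51149111, minus strand) stood at 34.2, 32.8 and 33.0 CPM in activated replicates 1, 2 and 3, against 42.5, 40.7 and 41.8 CPM in control replicates 1, 2 and 3. The SD was 2.32% of the mean in activated and 2.17% in control libraries, and the difference was −0.32 ± 0.06 on the log2 scale (SE; adjusted p = 0.00134 by edgeR). Arhgef3 (chromosome 14, 27114899 to 27403911, plus strand) stood at 27.0, 27.4 and 30.5 CPM in activated replicates 1, 2 and 3, against 36.8, 35.7 and 35.8 CPM in control replicates 1, 2 and 3. Both groups were tight and apart, and differed by −0.35 ± 0.07 on the log2 scale (SE; adjusted p = 0.00186 by edgeR). Exons of the unverified transcript Gm49616 overlap Arhgef3 on the same strand, so reads shared by them are uncertain. These are modest differences: 16.3% of tested genes had a lower log2 fold change than Rnd3 and 14.5% a lower one than Arhgef3.

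The paralogues Rnd2 and Rnd1 had log2 fold changes of −0.44 and −0.32, so all 3 RND genes were lower. The log2 ratio of Rnd3 to Rnd2 was 0.60, 0.64 and 0.37 in activated and 0.58, 0.25 and 0.40 in control replicates 1, 2 and 3, and the groups overlapped (a difference of 0.12; exact permutation p = 0.4; adjusted p = 0.4). Of 13 RhoA-family GTPases and effectors, 8 fell and 2 rose, with −0.23 as the median, with 5 lower and 2 higher without activated replicate 2 and likewise without control replicate 2. Rhob, a RhoA paralogue induced by growth factors, had −0.56, Rac1 −0.43 and Cdc42 −0.37. Rock1, the kinase that Rnd3 binds, rose, at 54.7 ± 5.99 CPM in activated and 37.1 ± 0.224 CPM in control libraries (SD, n = 3 each; log2 fold change 0.56). Rhoc, singled out after its value had been seen, was the other that rose (0.52).

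Besides Arhgef3, 5 of 22 exchange factor genes of the RhoA family were lower, 2 were higher and 15 did not pass, around a median of −0.02; with libraries scaled to the median neuron marker 0 were lower and 15 higher. Over the whole list 6 were lower, and 4 were without activated replicate 1 or without any 1 of the control replicates. Tiam1, a Rac exchange factor of dendritic spines, had a log2 fold change of −0.50, and Arhgef1 and Arhgef10 rose (0.43 and 0.37).

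Neither Rasd1, the gene of a Ras-like GTPase, nor Rasa1, that of a Ras GTPase-activating protein, passed under the TMM scaling. Rasd1 (chromosome 11, 59963181 to 59964944, minus strand) encodes a Ras-like GTPase, first found as induced by dexamethasone, that binds neuronal nitric oxide synthase through the adaptor Nos1ap. It stood at 1.25, 1.40 and 2.16 CPM in activated replicates 1, 2 and 3, against 1.27, 1.02 and 1.33 CPM in control replicates 1, 2 and 3. Activated replicate 3 stood above the rest, and the other 2 lay among the controls or just above them. The log2 fold change of 0.44 had a 95% interval of −0.11 to 0.98 (edgeR adjusted p = 0.189), and it was 0.13 without activated replicate 3. Reads on the opposite strand were numerous at this gene: 36.6% of the reads on both strands (135 of its reads against 234 on its own strand; 95% Wilson interval 31.8% to 41.6%, counting error only). With the reads of all genes of a library pooled, the share was 4.05% to 4.29%. Single genes differed from that pooled share, with 0.0701% at Rgs4 and 5.94% at Rasa1. At Rasd1 the share was 35.2% in activated and 38.2% in control libraries, and no annotated gene overlaps Rasd1.

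Rasa1 (chromosome 13, 85214780 to 85289130, minus strand), the GTPase-activating protein that switches Ras off, stood at 67.2, 62.4 and 61.5 CPM in activated replicates 1, 2 and 3, against 60.6, 56.8 and 62.2 CPM in control replicates 1, 2 and 3. The groups overlapped. The log2 fold change was 0.09, with a 95% interval of −0.05 to 0.22 (edgeR adjusted p = 0.307), under the TMM scaling. Rasa1 was called higher when libraries were scaled to the summed neuron markers (0.19; edgeR adjusted p = 0.041) and to the median neuron marker (0.41; adjusted p = 0.000223).

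Relatives of Rasd1 and Rasa1 were mixed. The other 5 tested genes of the RASD and DIRAS list were all lower, around a median of −0.46. Diras1 and Diras2, Ras-like GTPases of brain, had log2 fold changes of −0.72 and −0.46, and the paralogue Rasd2 had −0.51. Nos1ap had −0.21, a call lost without control replicate 2 or 3 (−0.19 in both). Over the whole list 5 were lower, and 3 without control replicate 3. Besides Rasa1, 9 of 18 tested Ras genes and Ras GTPase-activating protein genes were lower, 2 higher and 7 did not pass, around a median of −0.24; with libraries scaled to the median neuron marker 0 were lower and 8 higher. Among the other GTPase-activating protein genes, Rasa3 (0.04), Rasa4 (0.14), Rasal1 (−0.21), Rasal2 (−0.10), Nf1 (−0.03) and Dab2ip (−0.09) did not pass either, and were picked out after their values were known. The number higher was 1 without activated replicate 1 or control replicate 3. The number lower was 6 without activated replicate 2, without control replicate 2 or without control replicate 3. Hras had a log2 fold change of −0.41, and Rap2a and Rap2b −0.47 and −0.37. Rras and Rasa2 were the 2 called higher (0.75 and 0.21), named after their values had been seen.

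**Figure D3:**
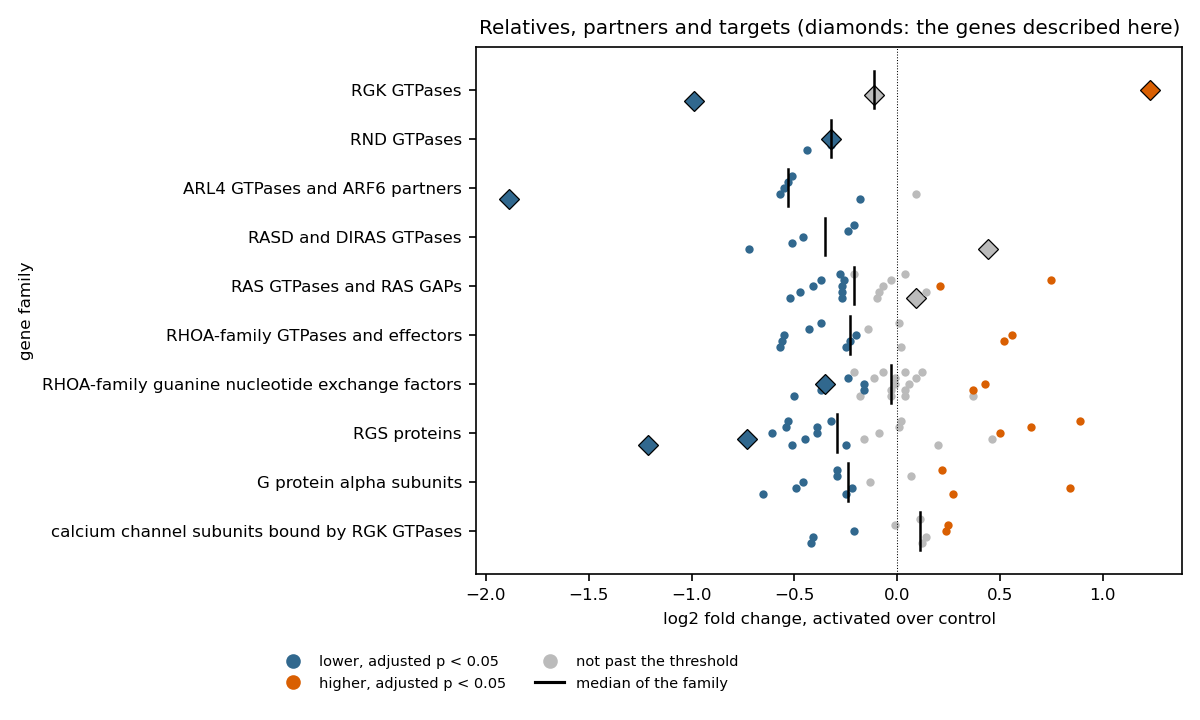
Log2 fold change (horizontal axis) of each tested gene of 10 fixed families of relatives, partners and targets; diamonds are the genes described here, colours the edgeR calls and black lines family medians. Arl4d, Rgs2 and Rem2 lie left of all other genes of their families, and Gem lies right of them.

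The 10 genes spanned a wide range of levels. Per kilobase of exon, the control libraries averaged 136 CPM for Rgs4, 50.2 for Rgs2, 35.2 for Arl4d, 9.40 for Rnd3, 8.17 for Rasa1, 7.97 for Arhgef3, 4.64 for Rem2, 0.749 for Rasd1, 0.630 for Gem and 0.489 for Rrad. In this order the neighbours from Rgs4 to Rnd3 did not overlap in their ranges over 3 control libraries. Rasa1 and Arhgef3 did, at 7.76 to 8.49 and 7.89 to 8.12 CPM per kilobase, as did Rasd1 with Gem (0.631 to 0.826 and 0.562 to 0.724) and Gem with Rrad (0.375 to 0.582). In the libraries labelled activated the averages were 82.0 for Rgs4, 21.6 for Rgs2, 9.47 for Arl4d, 8.70 for Rasa1, 7.52 for Rnd3, 6.25 for Arhgef3, 2.31 for Rem2, 1.46 for Gem, 0.996 for Rasd1 and 0.429 for Rrad CPM per kilobase of exon. Arl4d and Rasa1 overlapped there, at 8.55 to 10.2 and 8.40 to 9.18 CPM per kilobase, as did Gem and Rasd1, at 1.21 to 1.73 and 0.776 to 1.34.

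The 4 largest decreases were in compact genes. Arl4d, Rgs2, Rem2 and Rgs4 span 2292, 4824, 4332 and 6166 bases of genome, against 18674 for Rnd3, 289013 for Arhgef3 and 74351 for Rasa1. Short span did not go with a fall in every case: Rasd1 and Rrad span 1764 and 3258 bases and did not pass, and Gem, at 10296, rose. Among tested protein-coding genes, 30.6% of the 3232 that span under 10000 bases were lower, against 24.3% of the 10863 longer ones.

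Activated replicate 3 stood highest of the 3 activated libraries for 8 of the 10 genes: Gem, Rrad, Rasd1 and the genes that fell other than Rnd3. Without it the log2 fold changes were −1.96 for Arl4d, −1.30 for Rgs2, −1.06 for Rem2, −0.83 for Rgs4 and 1.07 for Gem, and no call was lost or gained. Of the 3, the same library had the highest summed markers of astrocytes (2491 CPM), microglia (153.7 CPM) and endothelial, mural and fibroblast cells (413.9 CPM). It was also highest for the excitatory neuron markers (4209 CPM) and the rapid activity-induced genes (866.2 CPM). It was not highest for the oligodendrocyte lineage markers (83.39 CPM) or the inhibitory neuron markers (2359 CPM). The part of any of these lists in the order of the libraries was not tested.

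The size of the smaller differences depended on how libraries were scaled. When libraries were set to the median of the neuron markers, the median of all tested genes moved by 0.32. Arl4d (−1.58), Rgs2 (−0.90), Rem2 (−0.67) and Rgs4 (−0.42) remained lower and Gem (1.55) higher. Rnd3 (−0.01) and Arhgef3 (−0.03) lost their calls, whereas Rasa1 (0.41) and Rasd1 (0.76) were then called higher (edgeR adjusted p = 0.000223 and 0.0152). Of the 34 relatives and partners chosen by rule, 9 kept a call under this scaling and 3, Nos1ap, Gnas and Cacnb3, changed sign. Rnd1 (−0.22) and Nos1ap and Cacnb3 (both −0.11) also lost their calls when libraries were scaled to the summed neuron markers. The family medians turned to 0.11 for the Ras list, 0.09 for the RhoA-family list, 0.28 for the exchange factors, 0.03 for RGS genes, 0.08 for alpha subunits and 0.21 for RGK genes. Under it 0 of 3 RND genes were lower (median −0.01). Of the 6 RASD and DIRAS genes 1 was lower and 1 higher (−0.03), and of the 7 ARL4 and ARF6 genes 2 were lower and 1 higher (−0.20). The RGS list had 3 lower and 5 higher, the RhoA-family list 1 lower and 4 higher, and the alpha subunits 1 lower and 4 higher.

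**Figure D4:**
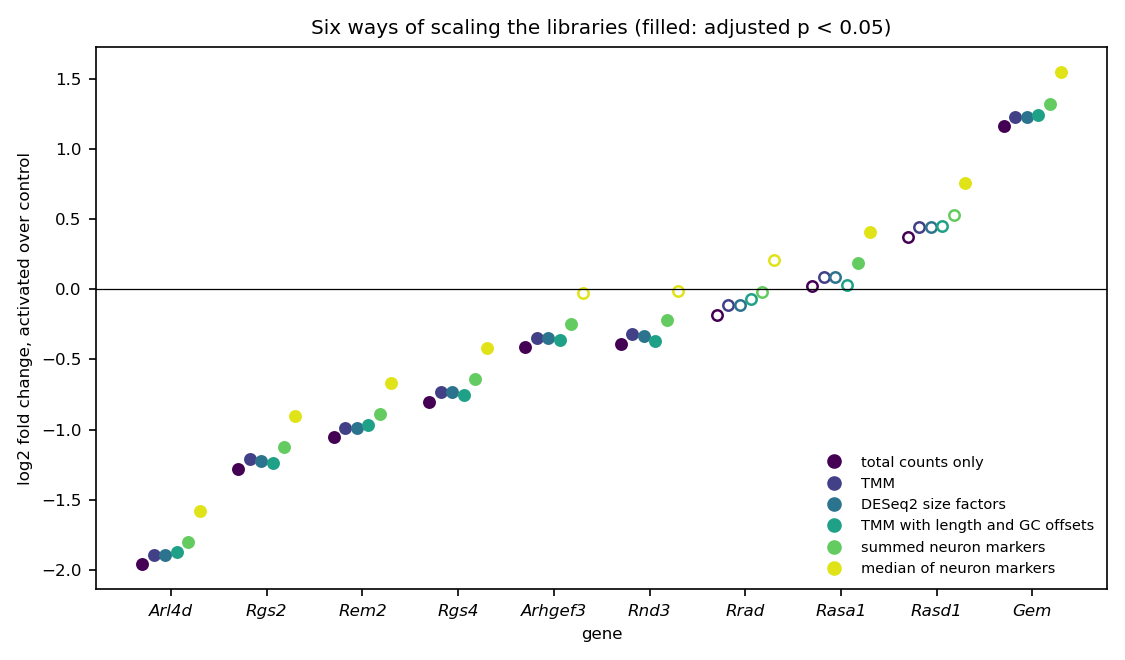
Log2 fold change of each gene (vertical axis) under 6 ways of scaling the libraries (colours); filled points passed edgeR's threshold. Arl4d, Rgs2, Rem2, Rgs4 and Gem keep their call and direction in each, while Rnd3 and Arhgef3 sit at −0.01 and −0.03 when scaled to the median of the neuron markers.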

How the data were processed

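The 6 libraries were strand-specific, ribosomal RNA-depleted total RNA. Each deposited file held raw counts per gene; the aligner was STAR 2.5.2b and the genome mm10, per the submitters' processing notes. The annotation release and counting parameters are not given in the sources used here. The reverse-strand column was used. Lines naming no gene were left out. Reads that matched no annotated exon on the strand counted made up 28.3% to 37.3% in activated and 25.1% to 29.6% in control libraries. Gene names, exon lengths and coordinates came from GENCODE M21 (GRCm38), which matched 55144 of 55385 identifiers.

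Genes passing filterByExpr (minimum count 10, total 15) were scaled by TMM and tested with the quasi-likelihood test of edgeR 4.0.16 (R 4.3.3), adjusted over 18132 genes. Standard errors were derived from the F statistic, as |log2 fold change| / √F. Alternatives were other scalings, DESeq2 1.42.0, the likelihood-ratio test, 2 other filters, unstranded counts, the replicate block and each library left out. The median neuron marker scaling and the length and GC offsets were added after the data were seen. In simulated counts for 18132 genes, the test recovered 40 of 67 genes at 1.5-fold, 50 of 67 at 2-fold and 62 of 66 at 4-fold change, beside 16 false calls. Only 200 genes were changed in the simulation, whereas 36.8% of tested genes were called in the data. The recovery rates therefore do not carry over to the data. The genes and lists were chosen with earlier results of these data known. Named relatives are up to 4 called genes of each list with the smallest p, and others are marked where named; some genes chosen by this rule are not reported here. Motif matches describe letters only. Intervals of read shares are Wilson intervals at 95%.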

Additional observations from a re-analysis of the deposited data

Results flagged for a closer look

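Reads on the strand opposite to Rasa1 averaged 4.4 CPM in the libraries labelled activated, a signal outside the strand used for the comparison. Each activated library lay above every control library, but narrowly: activated replicate 3 held 130 such reads and control replicate 3 held 135. How many of all genes separate in this way on the opposite strand was not computed. The opposite-strand reads made up 6.42% of the reads on both strands of Rasa1 in activated (331 of them) and 5.50% in control libraries (300 of them). The 95% Wilson intervals were 5.78% to 7.12% and 4.92% to 6.13%. Exons of Ccnh, the cyclin H gene, overlap Rasa1 on that strand, and the part of Ccnh reads was not tested.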

How the results depend on the processing

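The count of lower genes was 6 in 16 of 17 alternatives and 4 under the median neuron marker scaling; the count of higher genes was 1 in 15 of them, 2 when libraries were scaled to the summed neuron markers and 3 under the median neuron marker scaling. Rasa1 passed as higher under both neuron scalings (0.19 and 0.41) and Rasd1 under the median one (0.76), where Rnd3 (−0.01) and Arhgef3 (−0.03) lost their calls; this scaling raises all genes alike. Rrad, never called, changed sign with unstranded counts (0.07) and under the median neuron marker scaling (0.21), and ranged from −0.45 to 0.04 over the 6 libraries left out in turn; it had no value with the 1 CPM filter or in the DESeq2 Wald test. The Rem2 to Gem ratio difference was −2.14 with 0.1 CPM added and −1.40 with 2 CPM added. With each library left out in turn, 6 genes were lower and 1 was higher every time. Same-numbered replicates did not deviate together (correlations of −0.014, −0.182 and −0.215 for numbers 1, 2 and 3), and no library correlated best with its own number. With the replicate block 6 of the genes were lower and 1 higher, and 3105 of all tested genes were lower and 2173 higher, against 3733 and 2945 without it; Nos1ap (adjusted p = 0.0519), Cacnb3 (0.0535) and Rgs1 (0.073) were then not called by edgeR. Depth limits Rrad and Rasd1, which rest on 8 to 30 and 21 to 69 reads per library.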
